A study of Rattus norvegicus with 32 samples.

Results

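The 8 genes described here encode central parts of the signalling chain below the insulin receptor. Pik3ca and Pik3r1 encode a catalytic and a regulatory subunit of PI3-kinase, Pdpk1 encodes the kinase PDK1, Akt1 and Akt2 encode kinases of the AKT family, Gsk3b encodes the kinase GSK3 beta, and Foxo1 and Foxo3 encode transcription factors of the FoxO family. They were taken by gene name from the deposited count table, as 8 of its 32883 rows, and the rule uses no measured value. All 8 were among the 15439 genes with enough counts to be tested. In the chain, PI3-kinase makes the membrane lipid PIP3, which brings PDK1 and AKT together at the plasma membrane so that PDK1 can phosphorylate and activate AKT. Active AKT phosphorylates and restrains GSK3 beta and keeps FoxO factors out of the nucleus. In the hippocampus the chain is known for its part in neuronal survival, dendrite growth and synaptic plasticity. Its activity is set mostly by phosphorylation, and the values here are RNA levels.

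RNA was sequenced from 1 hippocampus of each of 32 wild-type rats, which fell into 4 groups. IS control (8 libraries) and IS insulin (7) are the iron-sufficient pups, and ID control (9) and ID insulin (8) are pups whose dams ate a purified diet with 3 to 6 ppm iron from gestational day 3 (G3) to postnatal day 7 (P7). The insulin groups received insulin through the nose daily from P8 to P21, and the other groups are labelled control. The labels give the day of collection as P7 or P21 without saying which applies to a library, and insulin began after P7, so the insulin groups are of P21 while the control groups could be of either day. If they were of P7, insulin and age could not be told apart. Litters are not named, so the p-values cover only the variation among the animals sampled, which may include littermates.

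Total counts per library were 19619345 to 28062630, and single libraries held between 356 counts of Foxo3 and 4375 counts of Akt1 among the 8 genes. Markers of hippocampal neurons and glia were present in all 4 groups, with summed neuron markers of 4221 to 6857 CPM (counts relative to the library total, with totals scaled by the TMM method). The 6 oligodendrocyte markers summed to medians of 19604 CPM in IS control and 17584 in ID control. Their medians were 19883 CPM in IS insulin and 18529 in ID insulin, and the age of the control groups was not tested. ID insulin replicate 3 stood apart from the other libraries of its group, with a chi-square per gene of 46.5 to 103 against at most 36.7 for other pairs of libraries within a group. The first number of the sample titles differed between all groups and varied inside a group only in ID control, as 69 in 5 libraries and 70 in 4. It therefore cannot be told apart from the groups elsewhere. In bulk tissue, fewer cells of a type and less RNA per cell cannot be told apart.

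Of the 8 genes, Pdpk1 was the 1 gene called in the interaction of diet and insulin. Its mean was lower with insulin than without in iron-sufficient pups and higher with insulin than without in iron-deficient pups, at 42.8 against 51.8 CPM and 50.4 against 44.7 CPM. The difference between these differences passed the test, at a log2 fold change of 0.45 (SE 0.11, 95% confidence interval 0.23 to 0.67, edgeR quasi-likelihood adjusted p = 0.0325). Gsk3b had group means in the same pattern but did not pass (0.35, SE 0.12, adjusted p = 0.106). The other 6 genes, Pik3ca, Pik3r1, Akt1, Akt2, Foxo1 and Foxo3, passed in no comparison.

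Counted over all comparisons, 0 of the 8 genes were called, meaning an adjusted p under 0.05 over all 15439 genes, in any of the 6 comparisons between a pair of groups. The share of all tested genes called was 0.291% for ID control against IS control, 3.82% for ID insulin against ID control and 0.123% for IS insulin against IS control. It was 2.45% for ID insulin against IS insulin, 3.35% for ID insulin against IS control and 0.479% for IS insulin against ID control. A count of 0 among 8 genes is near these backgrounds. In the order just given, 2, 1, 3, 2, 0 and 0 of the 8 genes had an unadjusted p under 0.05, against 11.9%, 19.5%, 16.3%, 20.1%, 20.3% and 13.6% of all tested genes. DESeq2 called 1 of the 8 in IS insulin against IS control and limma voom 1 in ID insulin against IS insulin, Pdpk1 both times, and each tool called 0 in the 5 other pairs. Over all genes, in the same order, DESeq2 called 0.738%, 5.3%, 1.33%, 4.68%, 5.54% and 1.87%, and limma voom called 1.57%, 5.05%, 0.181%, 3.67%, 3.82% and 1.03%. The interaction of diet and insulin was called for 0.939% of all genes (DESeq2 2.74%, limma voom 3.18%) and for 1 of the 8, Pdpk1. An unadjusted p under 0.05 in the interaction was found for 17.1% of all genes. A joint test of any difference among the 4 groups was called for 5.92% of all genes and again for 1 of the 8, Pdpk1 (adjusted p = 0.0423). Between title numbers 70 and 69 inside ID control, 0.22% of 15008 genes and 0 of the 8 were called, with 1 of the 8, Foxo1, at an unadjusted p under 0.05.

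**Figure D1:**
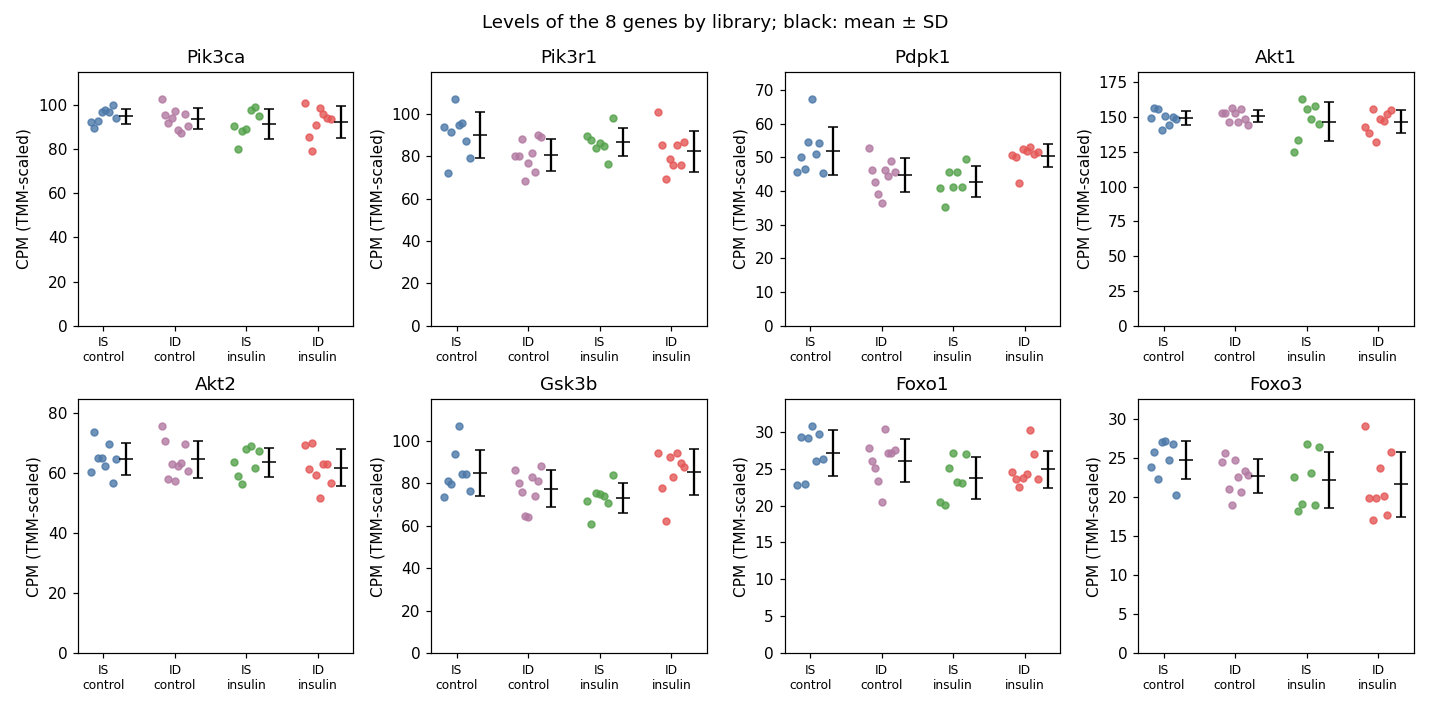
Level of each of the 8 genes (vertical axes, CPM from 0) in every library of the 4 groups (coloured points), with the group mean and SD in black. Most groups overlap widely, while Pdpk1 lies higher in IS control and ID insulin than in ID control and IS insulin.

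Pik3ca encodes the p110 alpha catalytic subunit, which makes PIP3. The level of Pik3ca (ENSRNOG00000056371) was 94.9 ± 3.41 CPM in IS control, 91.3 ± 6.63 in IS insulin, 93.7 ± 4.75 in ID control and 92.3 ± 7.06 in ID insulin (SD; 8, 7, 9 and 8 libraries). Single libraries lay between 79.0 and 102.6 CPM, and all 4 groups overlapped. No 95% interval of a difference between 2 groups reached beyond a log2 fold change of -0.15 or 0.11. The SD of log2 CPM within groups was 0.089, larger than that of 10.4% of all tested genes. Among the 1769 tested genes within 0.5 log2 units of its level, the spread was larger than that of 30.4%.

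Pik3r1 encodes p85 alpha, the subunit that holds the catalytic subunit in check and docks it on phosphorylated receptor adaptors. Pik3r1 (ENSRNOG00000018903) had 90.1 ± 10.8 CPM in IS control, 86.8 ± 6.62 in IS insulin, 82.3 ± 9.59 in ID insulin and 80.9 ± 7.55 in ID control. The lowest, median and highest libraries were 72.0, 92.7 and 107 CPM in IS control and 68.5, 80.4 and 90.3 CPM in ID control. All 9 ID control libraries lay below the IS control median, but the ranges overlapped and the difference did not pass (log2 fold change -0.16, SE 0.07, adjusted p = 0.361). No pair of neighbours in this order of levels was called different, and the same holds for the neighbours of each of the other 7 genes.

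Pdpk1 (ENSRNOG00000006136) encodes PDK1, the kinase that activates AKT and several of its relatives. Its lowest, median and highest libraries were 45.5, 50.4 and 67.3 CPM in IS control and 35.3, 41.3 and 49.6 CPM in IS insulin. All 7 IS insulin libraries lay below the IS control median, and 4 lay below every IS control library. In the iron-deficient groups the lowest, median and highest were 36.4, 45.6 and 52.9 CPM in ID control and 42.5, 51.4 and 53.1 CPM in ID insulin. Of the 8 ID insulin libraries, 7 lay above the ID control median. The lowest of them, at 42.5 CPM, was replicate 3, and the other 7 lay between 50.1 and 53.1 CPM. With insulin in both diets, 7 of 8 ID insulin libraries lay above every IS insulin library.

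The order of the Pdpk1 means was IS control (51.8 ± 7.21 CPM), ID insulin (50.4 ± 3.36), ID control (44.7 ± 4.94) and IS insulin (42.8 ± 4.62). In the 4 comparisons that make up the interaction, the log2 fold change was -0.28 for IS insulin against IS control (SE 0.08, adjusted p = 0.0999) and 0.17 for ID insulin against ID control (SE 0.07, adjusted p = 0.179). It was -0.21 for ID control against IS control (SE 0.07, adjusted p = 0.213) and 0.24 for ID insulin against IS insulin (SE 0.08, adjusted p = 0.0823). None of the 4 passed on its own, so the call rests on the difference between diets in the insulin difference. Between title numbers 70 and 69 inside ID control, Pdpk1 had 46.4 and 43.4 CPM (log2 fold change 0.09, SE 0.09, adjusted p = 0.831).

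The call of the Pdpk1 interaction depended on settings and single libraries. Its log2 fold change was 0.38 to 0.50, with an adjusted p of 0.00789 to 0.196, in the 45 alternative fits that did not block on the second number of the sample titles. Leaving out 1 library in turn kept the call in 22 of 32 fits. It was lost without replicate 4, 5 or 7 of ID control, 5 or 7 of IS control, 1 or 2 of IS insulin, or 5, 6 or 8 of ID insulin, at adjusted p values of at most 0.0698. Without IS control replicate 5, the highest of its group, and ID insulin replicate 3, the lowest of its group, a removal chosen after seeing the data, it was 0.42 (adjusted p = 0.0216). It was 0.50 with the ID control libraries of title number 69 alone (adjusted p = 0.0776) and 0.40 with those of number 70 alone (adjusted p = 0.0847).

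Other RNA measures differed among the libraries of these groups. Mitochondrially encoded genes took 7.63 to 9.26% of counts in IS control, 8.60 to 11.4% in IS insulin, 7.47 to 9.30% in ID control and 6.84 to 11.99% in ID insulin, and with that share as a covariate the Pdpk1 interaction was 0.38 (adjusted p = 0.0644). The 5 choroid plexus markers summed to 10.9 to 3168 CPM in IS control, 20.4 to 4180 in IS insulin, 1134 to 5349 in ID control and 295 to 5798 in ID insulin. The 3 blood markers in the table summed to medians of 443, 620, 540 and 1112 CPM in the same order of groups, and for ID insulin against ID control 3 of 3 were called higher. The 4 meninges markers summed to 192 to 313 CPM in IS control, 163 to 234 in IS insulin, 204 to 401 in ID control and 155 to 234 in ID insulin, and for ID insulin against ID control 3 of 4 were called lower. The 4 thalamus markers summed to 37.9 to 67.5 CPM, 42.3 to 71.5, 44.2 to 84.9 and 42.1 to 300.3 in the same order, and for ID insulin against ID control 2 of 4 were called higher. The Y-linked markers, which separate male from female pups, had summed medians of 49.8, 0.210, 0.530 and 51.8 CPM in that order. Single libraries ran from 0 to 106 CPM in IS control and 0 to 112 in IS insulin. They ran from 0.115 to 116 CPM in ID control and 0.0461 to 118 in ID insulin, so every group held low and high libraries. With the mean of the Y-linked markers as a covariate the Pdpk1 interaction was 0.43 (adjusted p = 0.0384). With mean marker levels of blood, choroid plexus, thalamus and meninges as covariates, the Pdpk1 interaction was 0.45 (adjusted p = 0.196).

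Gsk3b (ENSRNOG00000002833) encodes GSK3 beta, a kinase that is active until AKT phosphorylates it and that acts on glycogen synthase, beta-catenin and tau. The lowest, median and highest libraries were 73.5, 82.6 and 107 CPM in IS control and 60.7, 73.9 and 83.8 CPM in IS insulin. In the iron-deficient pups they were 64.2, 80.0 and 88.0 CPM without insulin and 62.3, 88.7 and 94.3 CPM with it. All 4 groups overlapped, although 5 of 8 ID insulin libraries lay above every IS insulin library. The means were 84.9 ± 10.8 and 73.1 ± 6.91 CPM in IS control and IS insulin, and 77.5 ± 8.62 and 85.2 ± 10.8 CPM in ID control and ID insulin. The log2 fold change was -0.22 for IS insulin against IS control (SE 0.08, adjusted p = 0.193) and 0.14 for ID insulin against ID control (SE 0.08, adjusted p = 0.338). Without ID insulin replicate 3, the lowest of its group, the Gsk3b interaction was 0.41 and passed (adjusted p = 0.0258), and ID insulin against IS insulin passed too (0.28, adjusted p = 0.0337). For Pdpk1 the latter difference likewise passed without that library (0.27, adjusted p = 0.0374). In the 45 alternative fits without the block, the Gsk3b interaction was 0.26 to 0.42, with an adjusted p of 0.0258 to 0.292. It passed with limma voom (0.35, adjusted p = 0.0476). It did not pass with the mitochondrial covariate (0.26, adjusted p = 0.206), the tissue marker covariates (0.39, adjusted p = 0.283) or title number 70 alone (0.28, adjusted p = 0.292).

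**Figure D2:**
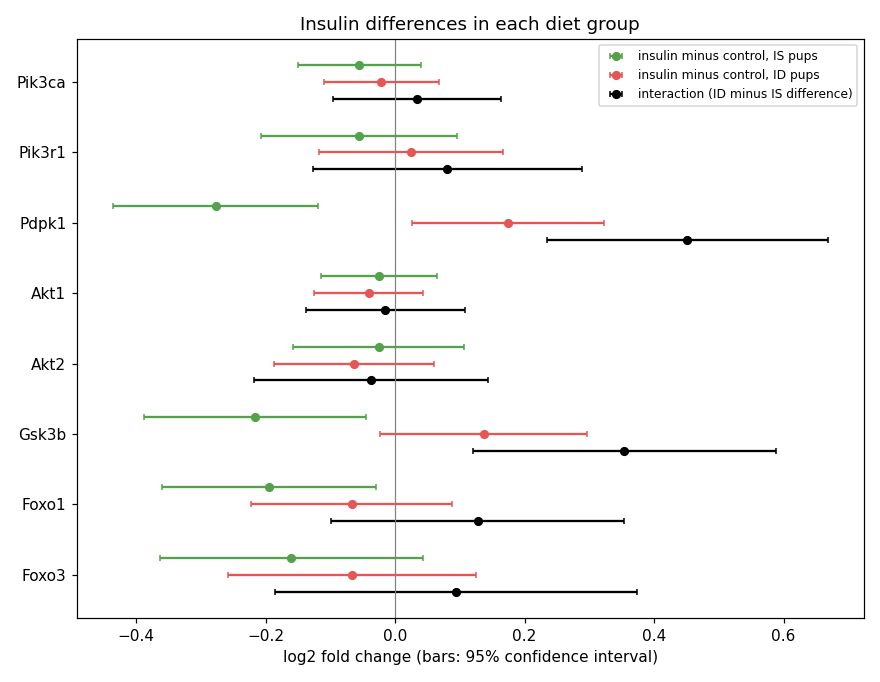
Log2 fold change (horizontal axis) of insulin against control in IS pups (green) and ID pups (red), and the interaction, which is the red value minus the green (black), for the 8 genes; bars are 95% confidence intervals. The black intervals of Pdpk1 (0.23 to 0.67) and Gsk3b (0.12 to 0.59) lie above 0 and those of the 6 other genes include it, before adjustment over all genes.

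Pdpk1 and Gsk3b moved together from library to library inside every group. The correlation of their deviations from the group means, on log2 CPM (prior count 2), was r = 0.889 over 32 libraries (Spearman's rho = 0.830, permutation test, adjusted p = 0.00014 for r, from the smallest p that 100000 permutations can give, over 28 pairs of the 8 genes). Within single groups r lay between 0.889 and 0.964. Without the 2 libraries farthest from the median of Pdpk1, ID control replicate 5 and IS control replicate 5, it was 0.857. Foxo1 followed both, with r = 0.738 to Pdpk1 (rho = 0.704) and 0.725 to Gsk3b (rho = 0.712).

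**Figure D3:**
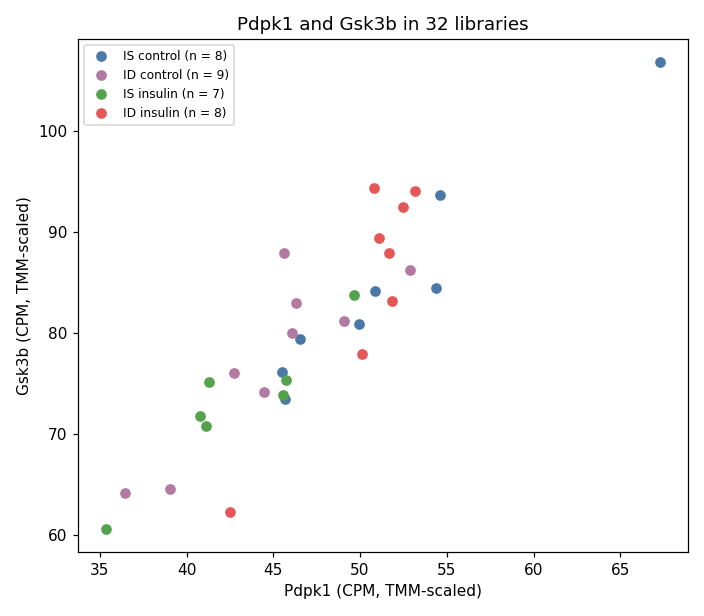
Level of Pdpk1 (horizontal axis, CPM) against that of Gsk3b (vertical axis, CPM) in the 32 libraries, coloured by group; the axes do not start at 0. Libraries of all 4 groups lie along 1 band, from IS insulin at 35.3 and 60.7 CPM to IS control at 67.3 and 107 CPM.

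Because these 2 genes moved together, the 250 bases before their start sites are shown, from RefSeq on assembly GRCr8, read along the gene's strand. In Pdpk1 (chr10:13679176-13679425, minus strand) the capitals mark GC boxes (GGGCGG) and a CCAAT box (CCAAT), each searched on both strands. In Gsk3b (chr11:76153250-76153499, minus strand) they mark the core of the hypoxia response element (ACGTG or GCGTG), here as overlapping matches on both strands.
Pdpk1: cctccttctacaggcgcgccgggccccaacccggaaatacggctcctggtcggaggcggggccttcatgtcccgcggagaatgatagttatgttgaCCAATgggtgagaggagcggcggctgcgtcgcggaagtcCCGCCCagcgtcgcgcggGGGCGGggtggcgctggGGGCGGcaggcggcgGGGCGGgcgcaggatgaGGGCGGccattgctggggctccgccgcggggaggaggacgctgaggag
Gsk3b: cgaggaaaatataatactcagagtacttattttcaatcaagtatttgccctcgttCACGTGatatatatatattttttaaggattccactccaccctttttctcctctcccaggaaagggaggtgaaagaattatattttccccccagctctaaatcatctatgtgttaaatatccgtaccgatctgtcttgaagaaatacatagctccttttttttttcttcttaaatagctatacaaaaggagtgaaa

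The 2 windows shared none of the motifs searched, and their GC content was 72.8% in Pdpk1 and 34.4% in Gsk3b, against a median of 51.2% over 33469 windows. A GC box was present in 2 of the 7 genes with a window (Pdpk1 and Pik3r1) and in 30.5% of all windows, and a CCAAT box in the same 2 genes and in 34.0% of all windows. The hypoxia core was present in 2 of the 7, Gsk3b and Foxo1, and in 36.7% of all windows. A match describes letters only. The start site used in the table lies at the outer end of the annotated gene in 2 of the 7, Pik3r1 and Foxo1, and not at that end in the other 5. Pdpk1 and Gsk3b are among these 5, so the windows shown may not be their main promoters.

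Akt1 and Akt2 encode the kinases at the centre of the chain, and neither was called in any comparison. Akt1 (ENSRNOG00000028629) had 149.4 ± 5.29 CPM in IS control, 146.8 ± 13.7 in IS insulin, 150.7 ± 4.49 in ID control and 146.5 ± 8.34 in ID insulin. Single libraries ranged from 124.8 to 162.9 CPM, both in IS insulin. No 95% interval of a difference between 2 groups reached beyond -0.13 or 0.10 on the log2 scale, and the interaction was -0.02 (interval -0.14 to 0.11). With an SD of log2 CPM of 0.084 within groups, Akt1 was the least variable of the 8 genes, with a spread larger than that of 7.92% of all tested genes and of 25.3% of genes at a similar level.

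Akt2 (ENSRNOG00000018677), the family member best known for insulin-driven glucose uptake, had 64.6 ± 5.23 CPM in IS control, 63.5 ± 4.81 in IS insulin, 64.4 ± 6.18 in ID control and 61.7 ± 6.07 in ID insulin. The lowest of these groups, ID insulin, ranged from 51.6 to 69.8 CPM and the highest, IS control, from 56.6 to 73.6 CPM, so they overlapped. The 95% interval of that difference was -0.19 to 0.06 on the log2 scale (adjusted p = 0.573).

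Foxo1 and Foxo3 encode factors that drive stress resistance, cell cycle arrest and metabolic genes when AKT is inactive. Foxo1 (ENSRNOG00000013397) had 27.1 ± 3.07 CPM in IS control, 26.1 ± 2.86 in ID control, 24.9 ± 2.52 in ID insulin and 23.7 ± 2.86 in IS insulin. The lowest, median and highest libraries were 22.8, 27.7 and 30.7 CPM in IS control and 20.0, 23.1 and 27.1 CPM in IS insulin. All 7 IS insulin libraries lay below the IS control median and 2 lay below every IS control library, but the difference did not pass (log2 fold change -0.19, SE 0.08, adjusted p = 0.223). A difference of the same size stood between title numbers 70 and 69 inside ID control, with means of 28.0 and 24.5 CPM and a log2 fold change of 0.19 (SE 0.09, adjusted p = 0.556).

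Foxo3 (ENSRNOG00000000299) was the most variable of the 8 genes within groups, with an SD of log2 CPM of 0.201. It had 24.8 ± 2.48 CPM in IS control, 22.2 ± 3.58 in IS insulin, 22.7 ± 2.17 in ID control and 21.7 ± 4.16 in ID insulin. The lowest, median and highest libraries were 20.3, 25.3 and 27.2 CPM in IS control and 17.1, 20.0 and 29.1 CPM in ID insulin. Of the 8 ID insulin libraries, 5 lay below every IS control library and 1 lay above them all. This difference, -0.19 on the log2 scale with a 95% interval of -0.39 to 0.003, did not pass (adjusted p = 0.255).

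For IS insulin against IS control the 8 log2 fold changes were below 0 in 8 of 8, with 0 called and a median of -0.11, against a median of 0.01 over all tested genes. With the mitochondrial share as a covariate Pik3ca was at 0.0371, and with the tissue marker covariates Pik3r1 was at 0.0184. Akt1 was above 0 with limma voom and without IS insulin replicate 1, as was Akt2 without IS insulin replicate 3, so 8 of 8 did not hold in those fits. The median mitochondrial share was 9.69% in IS insulin and 8.40% in IS control. The 4 changes nearest 0 were those of Akt1, Akt2, Pik3ca and Pik3r1, at -0.03, -0.03, -0.06 and -0.06. In iron-deficient pups 3 of the 8 were above 0 (Pdpk1, Gsk3b and Pik3r1) and the median was -0.03, against 0.004 over all genes. For ID control against IS control 1 of 8, Akt1, was above 0, with a median of -0.09 against 0.01. The comparisons share control libraries and the genes are not independent, so these counts are a description.

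Across pairs of the 8 genes, 25 of 28 correlations of deviations were above 0 and 11 had an adjusted p under 0.05 (permutation test). Of these 11, 10 were positive. They linked Pik3ca, Pik3r1, Pdpk1, Gsk3b, Foxo1 and Foxo3, and none involved Akt2, whose correlations with the other genes were between 0.01 and 0.23. In single groups some of the Akt2 correlations differed in sign. To Pdpk1 r was from -0.552 in ID insulin to 0.781 in ID control, and to Foxo3 from -0.228 in ID insulin to 0.864 in IS insulin. The 1 negative pair was Pik3r1 with Akt1 (r = -0.460, adjusted p = 0.0118; rho = -0.575, adjusted p = 0.00637), and in single groups its r lay between -0.878 and -0.324. Without the 2 libraries farthest from the median of Pik3r1 it was -0.448. Pik3ca had r = 0.488 to Pdpk1 and 0.533 to Gsk3b, but 0.290 and 0.266 without IS insulin replicate 2 and ID insulin replicate 3. The share of passing pairs among all tested genes was not computed, so these counts are a description. In log2 CPM over the 32 libraries, the r of Akt1 to its closest of these genes, Foxo1, was higher than its r to 80.4% of 11998 genes. For Pik3ca with Foxo3 that share was 96.6%, and for Pdpk1 with Gsk3b it was 99.9%.

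**Figure D4:**
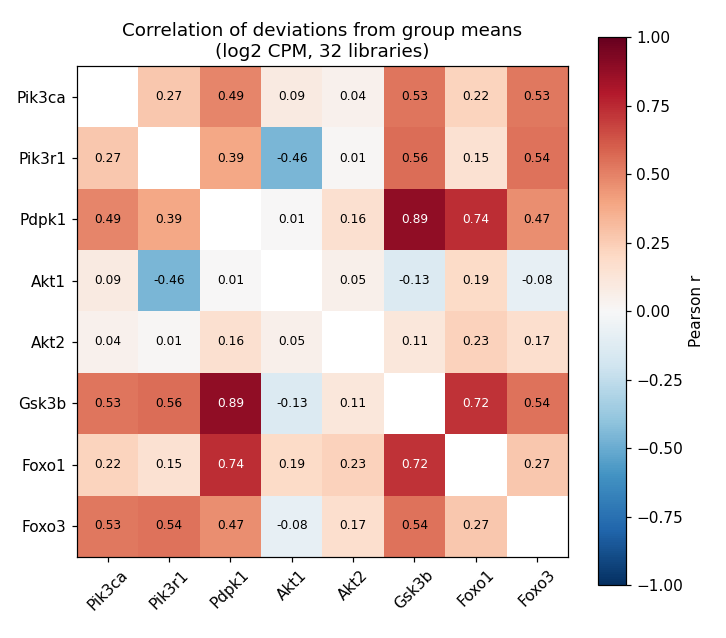
Pearson r (colour and printed value, scale from -1 to 1) between the deviations of log2 CPM from group means for each pair of the 8 genes, over 32 libraries; both axes list the genes. Pdpk1, Gsk3b and Foxo1 form the darkest block, Akt2 stays between 0.01 and 0.23 over the 32 libraries, and Pik3r1 with Akt1 is the 1 clearly negative pair.

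The share of mitochondrially encoded counts varied with some of these genes inside groups. Pik3ca had r = -0.786 to it (rho = -0.718, permutation test, adjusted p = 8e-05 over 8 genes, from the smallest p the permutations can give), and r was -0.892 to -0.667 in single groups and -0.729 without ID insulin replicates 3 and 6. For Gsk3b r was -0.549 (adjusted p = 0.0129) and for Pdpk1 -0.451 (adjusted p = 0.0129), but their rank correlations did not pass (rho = -0.413, adjusted p = 0.0717, and -0.337, adjusted p = 0.115). Without ID insulin replicates 3 and 6 they were -0.333 and -0.351, so a part of both relations rests on those libraries. For Foxo1 r was -0.403 (adjusted p = 0.0474; rho = -0.346, adjusted p = 0.115), or -0.282 without the same 2 libraries. In single groups r was -0.872 to 0.166 for Gsk3b, -0.917 to 0.037 for Pdpk1 and -0.777 to 0.375 for Foxo1. The highest value was that of ID control each time, so these relations were not seen in that group.

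The genes most like each of the 8 were read from Pearson's r of log2 CPM over the 32 libraries among 11998 genes, as a description. Pdpk1 was closest to Usp31, a ubiquitin protease gene (r = 0.933), and to Cacna1e, a voltage-gated calcium channel gene (0.932), and its r to Gsk3b (0.906) was higher than its r to 99.9% of these genes. Gsk3b was closest to Akap6, a gene for an anchoring protein of protein kinase A (0.969), and to the ubiquitin ligase gene Huwe1 (0.934). The edgeR quasi-likelihood interaction was 0.32 for Usp31 (adjusted p = 0.0746) and 0.58 for Cacna1e (adjusted p = 0.0598). It was 0.36 for Akap6 (adjusted p = 0.0971) and 0.33 for Huwe1 (adjusted p = 0.0819). The sign was that of Pdpk1 and Gsk3b, but none of these interactions passed. The r values include differences between groups, so genes chosen by them tend to share the pattern of means. Foxo1 was closest to Map2, a microtubule protein gene of dendrites (0.832), and Caln1 (0.784). Foxo3 was closest to Depdc5, which encodes a brake on mTOR complex 1 (0.762). Pik3ca was closest to Snx19 (0.806) and Luzp1 (0.792), Pik3r1 to Tacc1 (0.790) and Lmtk2 (0.761), Akt1 to Hexim1 (0.760) and Dnal4 (0.736), and Akt2 to Alkbh1 (0.638) and Tor1aip2 (0.626).

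Other genes of the chain were taken from a list of 46, of which 43 were in the table by name and 41 were tested. Of the 41, 0 were called for ID control against IS control and 0 for IS insulin against IS control. For ID insulin against ID control 1 was higher and 0 lower, for ID insulin against IS insulin 4 were higher and 0 lower, for ID insulin against IS control 0 were higher and 2 lower, and for IS insulin against ID control 0 were higher and 1 lower. In the interaction 1 was higher and 0 lower. The shares of all tested genes called in these 5 comparisons, both directions together, were 3.82%, 2.45%, 3.35%, 0.479% and 0.939%. By unadjusted p under 0.05 there were 5 and 6 of the 41 genes in the 2 comparisons with none called, against 11.9% and 16.3% of all genes, where DESeq2 and limma voom also called 0. In the 5 comparisons with calls, in the order above, unadjusted p was under 0.05 for 11, 14, 13, 5 and 9 genes. The shares of all genes were 19.5%, 20.1%, 20.3%, 13.6% and 17.1%. DESeq2 called 4, 6, 4, 2 and 3 of the 41, and limma voom 5, 3, 2, 1 and 2. Over all genes DESeq2 called 5.3%, 4.68%, 5.54%, 1.87% and 2.74%, and limma voom 5.05%, 3.67%, 3.82%, 1.03% and 3.18%. The median log2 fold change over the 41 genes lay between -0.04 and 0.03 in all 7 comparisons.

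Among the PIP3 phosphatases, Inppl1, which encodes SHIP2, was higher in ID insulin (67.5 ± 8.80 CPM) than in ID control (55.7 ± 7.06 CPM; log2 fold change 0.28, SE 0.07, adjusted p = 0.0161) and kept the call without any 1 library. That call was lost with title number 69 alone, without ID insulin replicates 3 and 5, and with the compared groups fitted alone. Inppl1 was also called against IS insulin (56.6 ± 3.29 CPM; 0.25, adjusted p = 0.0490), a call kept in 7 of 32 fits without 1 library. Inpp4b, which acts on the lipid made from PIP3, was higher in ID insulin (11.1 ± 3.14 CPM) than in IS insulin (7.86 ± 1.28 CPM; 0.51, SE 0.13, adjusted p = 0.0357), except without replicate 2, 3, 5 or 7 of IS insulin or 5 or 8 of ID insulin. In the same comparison Rictor, a subunit of the mTOR complex that phosphorylates AKT, was higher (43.0 ± 2.17 against 34.8 ± 4.32 CPM; 0.31, adjusted p = 0.0419), in 20 of 32 fits. With the mitochondrial covariate or with title number 69 alone, neither Inpp4b nor Rictor passed.

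Apc, which encodes a scaffold of the complex in which GSK3 beta marks beta-catenin for breakdown, had its higher means in IS control and ID insulin, as Pdpk1 did. The means were 983 ± 123 CPM in IS control, 832 ± 108 in IS insulin, 870 ± 123 in ID control and 1043 ± 79.7 in ID insulin. The interaction was 0.50 (SE 0.12, adjusted p = 0.0334), called in 22 of 32 fits without 1 library. That call was lost without replicate 3, 4, 5 or 7 of ID control, 2, 4 or 5 of IS control, 1 or 2 of IS insulin, or 6 of ID insulin. It was also lost with title number 69 alone (0.51, adjusted p = 0.0974), with number 70 alone (0.50, adjusted p = 0.0501) and with the mitochondrial covariate (0.47, adjusted p = 0.0556). ID insulin was also higher than IS insulin (0.33, SE 0.09, adjusted p = 0.0419), in 23 of 32 fits. The family members of GSK3 and FoxO on the list, named for their kinship after their values were seen, were not called in the interaction: it was -0.10 for Gsk3a (adjusted p = 0.437), 0.06 for Foxo4 (0.827) and -0.02 for Foxo6 (0.977).

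**Figure D5:**
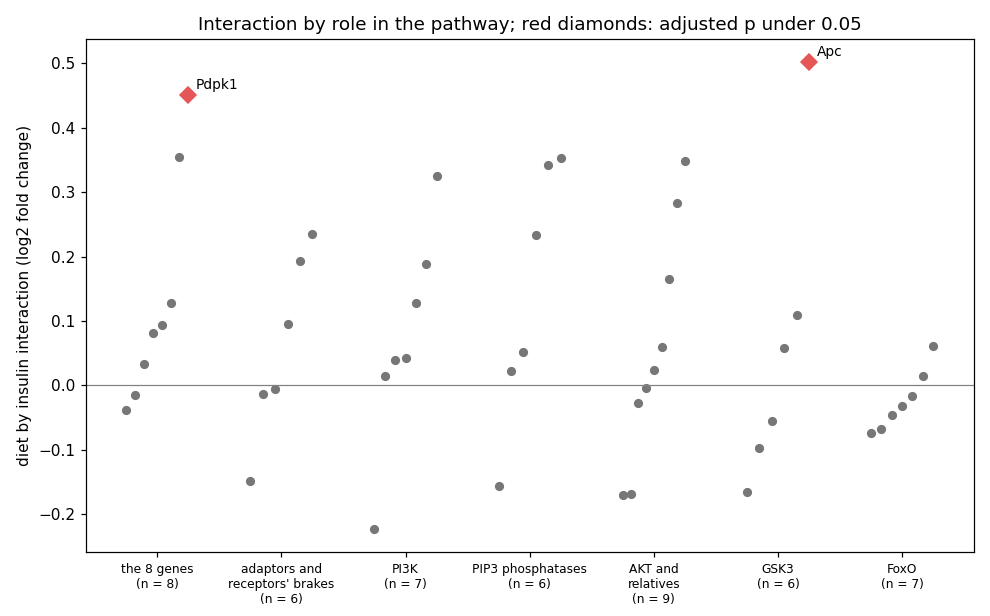
Interaction of diet and insulin (vertical axis, log2 fold change) for the 8 genes and for the 41 other tested genes of the chain, grouped by role (horizontal axis, number of genes in brackets); points are genes in rising order within a role, and red diamonds passed the test. Pdpk1 (0.45) and Apc (0.50) are the 2 called genes.

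Nearer the receptor, Ptpn1, which encodes the phosphatase PTP1B, was lower in ID insulin (33.2 ± 3.71 CPM) than in IS control (40.6 ± 2.33 CPM; log2 fold change -0.29, SE 0.07, adjusted p = 0.0171), and this held without any 1 library. The adaptor gene Irs2, itself a FoxO target, was lower as well (88.1 ± 10.4 against 101 ± 3.01 CPM; -0.20, adjusted p = 0.0318), except without IS control replicate 7 or 8. The Irs2 call was also lost without ID insulin replicates 3 and 5 and with the compared groups fitted alone. Both diet and insulin differ between ID insulin and IS control. For insulin against control, Ptpn1 was at -0.21 in ID pups (edgeR adjusted p = 0.0772) and -0.20 in IS pups (adjusted p = 0.161). Irs2 was at -0.16 (adjusted p = 0.0638) and -0.15 (adjusted p = 0.167) in that order, and none of these differences passed. The interaction was -0.006 for Ptpn1 and -0.01 for Irs2. Pik3cg, a PI3-kinase catalytic subunit best known in leukocytes, was lower in IS insulin (6.62 ± 0.902 CPM) than in ID control (8.94 ± 1.17 CPM; -0.44, adjusted p = 0.0325), except without replicate 1 or 2 of ID control or 1, 2, 5 or 6 of IS insulin. The Pik3cg call was also lost with the mitochondrial covariate, with title number 70 alone and with the compared groups fitted alone. The summed microglia markers were 170 to 205 CPM in ID control and 177 to 235 CPM in IS insulin, and their part in that result was not tested.

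Transcripts that FoxO factors are known to control were read from a list of 30, of which 28 were tested. For ID insulin against ID control 1 was higher and 2 lower (median -0.07, against 0.004 over all genes), for ID insulin against IS control 0 were higher and 3 lower (median -0.08, against 0.01), and in the interaction and the 4 other comparisons 0 were called by edgeR. Over all genes 3.82% and 3.35% were called in the first and second of these. In these 2, unadjusted p was under 0.05 for 11 and 9 of the 28 genes, against 19.5% and 20.3% of all genes. DESeq2 called 5 and 5 of the 28, against 5.3% and 5.54% of all genes. Limma voom called 6 and 4, against 5.05% and 3.82%. In the 5 comparisons with 0 called, unadjusted p was under 0.05 for 13 genes in ID insulin against IS insulin, where DESeq2 called 4 and limma voom 2. It was under 0.05 for 7 in the interaction, where they called 1 and 0. Over all genes the shares were 20.1% by unadjusted p, 4.68% by DESeq2 and 3.67% by limma voom in the former, and 17.1%, 2.74% and 3.18% in the interaction. It was under 0.05 for 0 genes in ID control against IS control, 3 in IS insulin against IS control and 4 in IS insulin against ID control, where both tools called 0, against 11.9%, 16.3% and 13.6% of all genes by unadjusted p. Bcl6, a transcriptional repressor gene, was lower in ID insulin (43.6 ± 6.36 CPM) than in ID control (55.4 ± 3.63 CPM; -0.34, SE 0.08, adjusted p = 0.0105) and than in IS control (57.6 ± 5.37 CPM; -0.40, SE 0.08, adjusted p = 0.00434), without any 1 library too. Its call against ID control was lost with title number 70 alone. Klf4, a transcription factor gene, was lower than in ID control (5.35 ± 0.938 against 7.32 ± 1.49 CPM; -0.45, adjusted p = 0.0436, in 23 of 32 fits) and than in IS control (7.37 ± 1.55 CPM; -0.45, adjusted p = 0.0493, in 14 of 32 fits). Fbxo32, the atrogin ubiquitin ligase gene, was higher than in ID control (16.0 ± 2.26 against 13.4 ± 0.965 CPM; 0.26, adjusted p = 0.0378, in 23 of 32 fits). In the 15 other alternative settings Fbxo32 kept its call in 7. Klf4 kept its call in 8 against ID control and in 6 against IS control. The calls of both genes against ID control were lost with title number 69 or 70 alone. They were also lost without ID insulin replicates 3 and 5 and with the compared groups fitted alone.

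With the 4 tissue marker covariates used above for Pdpk1, none of the calls named for the other pathway genes and the FoxO targets passed. The log2 fold change moved toward 0 by more than 1.5 times for Inppl1, to 0.12 against ID control (adjusted p = 0.822) and 0.10 against IS insulin (adjusted p = 0.676), for Inpp4b, to 0.21 (adjusted p = 0.556), and for Irs2, to -0.10 (adjusted p = 0.847). For the others the size stayed within 1.5 times of the value without covariates while the adjusted p rose. It was 0.31 for Rictor (adjusted p = 0.248), 0.33 for Apc against IS insulin (0.258) and 0.53 for Apc in the interaction (0.195), -0.27 for Ptpn1 (0.467) and -0.38 for Pik3cg (0.232). Against ID control it was -0.43 for Bcl6 (0.295), -0.39 for Klf4 (0.699) and 0.24 for Fbxo32 (0.618), and against IS control -0.40 for Bcl6 (0.398) and -0.46 for Klf4 (0.652).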

How the data were processed

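The deposited table holds raw counts of reads per gene for the 32 libraries, with 0 columns of other samples. The submitters' processing notes name Trimmomatic (0.40), FastQC, HISAT2 (2.1.0), featureCounts and edgeR, and the builds Rnor_6.0 and mm10, with no role for any of them. Strand use and the treatment of reads that fit several places are not given in the sources used here, so overlapping and antisense genes cannot be told apart. The 8 genes, the lists and the alternatives were chosen with earlier results of these data known.

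The analysis ran edgeR 4.0.16 under R 4.3.3, with TMM scaling, filterByExpr by group and the two-sided quasi-likelihood F-test with 1 coefficient per group over all 32 libraries (28 residual degrees of freedom). Benjamini-Hochberg adjustment ran over all tested genes. CPM values use TMM-scaled totals. The scripts were tested on simulated data. Groups follow the labels, and replicate numbers only name libraries in accession order. Genes named outside the 8 are up to 4 called genes per list and comparison with the lowest adjusted p, and the 2 genes most correlated with each of the 8. Some of the results this gave are not reported here. Alternatives were DESeq2 (version 1.42.0), limma voom (version 3.58.1), other scaling, filters, covariates, a replicate block and libraries left out. The earlier quasi-likelihood method, the mitochondrial covariate and the removal of IS control replicate 5 with ID insulin replicate 3 were added after seeing the data. Promoter windows came from RefSeq (GRCr8), matched by symbol for 7 of the 8 genes, not Foxo3.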

Additional observations from a re-analysis of the deposited data

Results flagged for a closer look

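Pdpk1 gave all 3 of the results that stood out. In IS control replicate 5 it had 67.3 CPM, far above the next library of its group at 54.6 CPM. In ID insulin replicate 3 it had 42.5 CPM, far below the next at 50.1 CPM. Both gaps passed Dixon's limit for 8 libraries. These were 2 of 32 sets of a gene and a group tested in this way, and chance alone passes about 1 in 20. The third is the difference between diets in the insulin log2 fold change of Pdpk1, 0.45 by the interaction test (edgeR quasi-likelihood adjusted p = 0.0325).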

How the results depend on the processing

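Of 2624 recomputed log2 fold changes of the 8 genes, 98 changed sign and 27 changed their call. The number of the 8 genes called stayed 0 in every fit for ID control against IS control, ID insulin against ID control, ID insulin against IS control and IS insulin against ID control. For IS insulin against IS control it was 0, and 1 with DESeq2. For ID insulin against IS insulin it was 0, and 1 with limma voom or without ID insulin replicates 3 and 5, 2 without IS control replicate 5 and ID insulin replicate 3, and 0 to 2 without 1 library. In the interaction it was 1, and 2 with limma voom and under both of those removals, 0 with the replicate block, the tissue marker covariates, the mitochondrial covariate, or title number 69 or 70 alone, and 0 to 2 without 1 library.

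The second title numbers showed no pairing in the deviations. Their median correlation was 0.0034 in same-number pairs and 0.0038 in different-number pairs. Of 40 same-number pairs, 8 had a correlation over 0.1, and 2 libraries were closest to their own number. The meaning of the number is not given, so a shared litter or order of handling was not tested. With the replicate block the interaction was 0.34 for Pdpk1 (adjusted p = 0.216), 0.24 for Gsk3b (adjusted p = 0.430) and 0.44 for Apc (adjusted p = 0.208). With it Pik3ca was -0.0337 there and 0.0421 for ID control against IS control, and Foxo1 was 0.0226 for the latter. The last 3 were changes of sign, and none of the sign changes given here passed the test. With the tissue marker covariates, Pik3ca was 0.0346 for ID control against IS control and -0.0374 in the interaction, Foxo3 was 0.0476 and 0.0758 for ID insulin and IS insulin against ID control, and Pik3r1 was 0.0184 for IS insulin against IS control, 0.0205 for ID insulin against IS insulin and 0.0389 for ID insulin against IS control. With the mitochondrial covariate, Pik3ca was 0.0371 for IS insulin against IS control, -0.0596 for ID insulin against IS insulin, 0.0633 for IS insulin against ID control and -0.0333 in the interaction, and for IS insulin against ID control Pdpk1 was 0.0336, Gsk3b 0.0453 and Foxo3 0.0888. With number 69 alone Foxo1 was 0.0177 for ID insulin against ID control. With number 70 alone Foxo1 was 0.0434 for ID control against IS control, and Pik3ca was 0.0265 and 0.0124 for ID insulin and IS insulin against ID control. Without IS control replicate 5 and ID insulin replicate 3, Pdpk1 was 0.0505 for ID insulin against IS control. The causes of these changes were not tested.

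Over all genes the number called moved more: the interaction had 145, against 9 with the block, 10 with tissue covariates, 12 with number 69 alone, 423 with DESeq2 and 491 with limma voom. DESeq2 size factors moved no group level of the 8 genes by more than 1 SD.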
